A study of Homo sapiens with 16 samples.

Results

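The ZNF genes are zinc finger genes taken by name, with the letters ZNF, a number and at most 1 further letter. The name alone does not show that a gene encodes fingers of the C2H2 type. Of 554 genes with such a name among the 58884 genes in the table, 233 had a mean of at least 4 TPM (transcripts scaled to a sum of 1000000 in each library) over the 6 libraries, and these 233 are the members described here. They were chosen by name and selected on their mean TPM over all 6 libraries, so their levels are given without a test. Their levels and fold changes were set beside 9399 other genes with a mean between 4 TPM and the level of the highest member, 95.5 TPM. The cells were wild type 293T, a human embryonic kidney line, transfected for 72 h with a scramble siRNA pool, a pool against SETD2 or a pool against hnRNP L, with 2 libraries for each of the 3 groups. All 3 groups shared the wild type genotype and the transfection. The study describes replicates of its sequencing experiments as biologically independent, and p-values measure the spread between these libraries. RNA was ribodepleted and polyA-enriched before the libraries were made.

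C2H2 zinc finger proteins form a large family of sequence-specific DNA-binding proteins, and each finger reads a few bases. Many carry a KRAB box, which binds the corepressor TRIM28 and, through SETDB1, places H3K9 methylation on transposable elements. KRAB zinc finger genes lie in dense clusters on chromosome 19, and the bodies of these genes carry H3K9me3 and H3K36me3 together. SETD2 is the methyltransferase that makes H3K36me3, and hnRNP L is a splicing factor that binds CA-rich RNA.

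Both siRNA pools lowered their target. SETD2 stood at 13.38 and 11.70 TPM in the scramble libraries and at 4.24 and 4.91 TPM with SETD2 siRNA, and at 10.80 and 10.24 TPM with hnRNP L siRNA (log2 fold change with SETD2 siRNA -1.36, SE 0.13, limma adjusted p = 0.00603). Fold changes here are on the log2(TPM + 0.5) scale, which understates the change of low genes. HNRNPL stood at 341.0 and 457.2 TPM in the scramble libraries and at 25.04 and 28.81 TPM with hnRNP L siRNA (log2 fold change -3.85, SE 0.14, limma adjusted p = 8.48e-06), and at 394.7 and 413.4 TPM with SETD2 siRNA. Among markers of the line, VIM ranged from 649.5 to 940.8 TPM, KRT18 from 59.68 to 77.24 TPM, KRT8 from 31.12 to 43.43 TPM and LIN28B from 24.58 to 31.24 TPM, while PAX2 was low at 1.65 to 2.79 TPM. The leukocyte marker PTPRC was listed at 0 in all 6 libraries, the globin HBB reached at most 0.17 TPM and ALB at most 0.40 TPM.

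The members were spread over 21 chromosomes, with 69 on chromosome 19, 25 on chromosome 7 and 24 on chromosome 16. By GENCODE, 229 were protein-coding and 4 were transcribed pseudogenes, namely ZNF767P, ZNF204P, ZNF286B and ZNF271P. In the translated canonical transcripts, 223 members held finger letters, with a median of 9 fingers and at most 36, and 166 held the linker that joins adjacent fingers. Letters of a KRAB box were found in 101 members and letters of a SCAN box, an oligomerisation domain, in 19. Among 12388 tested protein-coding genes without a ZNF name only 18, or 0.145%, held the KRAB letters. ZNF genes below the limit of 4 TPM are not in that set. The letters miss diverged boxes, so members without them are not shown to lack a KRAB box.

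Most members were expressed at a low level. The median member had a mean of 8.74 TPM against 16.6 TPM for the other genes between the same limits, 92 members exceeded 10 TPM and 13 exceeded 50 TPM. Members with KRAB letters had a median of 6.37 TPM and those without 10.4 TPM. The members at the top were ZNF768, at 85.82 to 103.4 TPM over the 6 libraries, ZNF638 at 83.02 to 103.5 TPM, ZNF207 at 86.90 to 99.19 TPM, ZNF664 at 74.41 to 104.5 TPM and ZNF358 at 70.04 to 97.05 TPM. These ranges overlap, so the 5 are in no firm order. ZNF638 is an RNA-binding protein that acts in splicing and in silencing of retroviral DNA, and ZNF207 (BuGZ) helps chromosomes align on the spindle.

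At the lower limit, ZNF562, ZNF587 and ZNF467 lay just inside with means of 4.01, 4.02 and 4.02 TPM, and ZNF2, ZNF385B and ZNF45 lay just outside with 3.94, 3.93 and 3.90 TPM. A member can pass such a limit through 1 group. The mean was under 4 TPM in scramble siRNA for 3 members, in SETD2 siRNA for 8 and in hnRNP L siRNA for 18, which makes 23 members in all. Of these, 6 were among the 13 members called with hnRNP L siRNA. Among members called in any comparison, 3 would fall below the limit if 1 group were left out: ZNF836 at 3.43 TPM without hnRNP L siRNA, ZNF467 at 3.21 TPM without SETD2 siRNA and 3.97 TPM without scramble siRNA, and ZNF853 at 3.85 and 3.90 TPM. No member was listed at 0 in any library.

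As a whole the members took 0.318% to 0.362% of a library. They summed to 3303 and 3493 TPM in the scramble libraries, 3403 and 3617 TPM with SETD2 siRNA, and 3185 and 3437 TPM with hnRNP L siRNA, out of 1000000 TPM in each. The 3 groups overlap in this sum. TPM are shares of a library, so the value of a gene also moves when other genes change. Each library pools many cells, so less RNA from a gene in each cell and fewer cells that express it cannot be told apart.

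Promoters are shown for 4 members whose values are given below, because ZNF264 and ZNF333 were higher with hnRNP L siRNA and because ZNF33A and ZNF33B are related copies with unlike values. Each is the stretch of GRCh38.p14 from 250 bases before to 50 bases after the RefSeq gene start. It is written 5′ to 3′ on the gene's strand, and capitals mark CCGGAAG on either strand. For ZNF333 the RefSeq start lies inside the GENCODE position given below, so most of that window lies within the gene by GENCODE. ZNF33A lies at chr10:38010400-38010699 on the plus strand, ZNF33B at chr10:42638521-42638820 on the minus strand, and ZNF264 at chr19:57191250-57191549 and ZNF333 at chr19:14689798-14690097, both on the plus strand.
ZNF33A: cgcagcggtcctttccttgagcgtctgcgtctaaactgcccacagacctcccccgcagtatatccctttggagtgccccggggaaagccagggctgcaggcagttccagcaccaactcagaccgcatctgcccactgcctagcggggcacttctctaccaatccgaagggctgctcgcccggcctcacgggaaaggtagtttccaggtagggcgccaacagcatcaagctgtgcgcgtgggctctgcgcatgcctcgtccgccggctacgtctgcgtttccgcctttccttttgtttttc
ZNF33B: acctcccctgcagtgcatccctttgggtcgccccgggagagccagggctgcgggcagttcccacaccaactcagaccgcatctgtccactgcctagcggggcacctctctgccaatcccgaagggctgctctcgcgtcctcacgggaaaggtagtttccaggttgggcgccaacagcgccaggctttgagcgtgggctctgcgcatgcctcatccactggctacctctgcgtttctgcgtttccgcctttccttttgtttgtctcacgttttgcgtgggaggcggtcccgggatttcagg
ZNF264: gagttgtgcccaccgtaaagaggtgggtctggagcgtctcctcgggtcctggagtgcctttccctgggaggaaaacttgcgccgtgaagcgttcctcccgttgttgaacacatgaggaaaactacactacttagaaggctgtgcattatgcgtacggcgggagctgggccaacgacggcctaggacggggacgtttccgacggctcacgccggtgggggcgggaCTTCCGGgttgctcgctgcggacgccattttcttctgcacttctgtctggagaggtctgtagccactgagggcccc
ZNF333: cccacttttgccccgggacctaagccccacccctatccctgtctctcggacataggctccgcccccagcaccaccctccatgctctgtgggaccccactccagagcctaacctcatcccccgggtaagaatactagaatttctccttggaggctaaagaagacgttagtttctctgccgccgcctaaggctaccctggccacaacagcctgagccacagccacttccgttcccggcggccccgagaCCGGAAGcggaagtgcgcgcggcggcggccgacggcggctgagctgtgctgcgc
The ZNF33A and ZNF33B promoters were identical at 227 of 254 aligned bases (89.4%), and neither held CCGGAAG or TATAAA.

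Motifs were searched on both strands of the promoters of 196 members found in the RefSeq table. CCGGAAG, the core that ETS factors bind, occurred in 75 member promoters (38.3%), in 20.5% of 6839 promoters of other protein-coding genes of similar TPM and in 10.3% of all 35116 promoters. The TATA letters TATAAA occurred in 6 member promoters (3.06%), in 4.47% of those of similar TPM and in 11.5% of all. The member promoters had a median of 24 CpG, against 28 at similar TPM and 14 over all promoters. These matches describe letters in a window and not bound sites.

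Depletion of SETD2 gave no member that passed the test. A gene counted as called where limma's adjusted p was below 0.05 with over 1.5-fold change, and 0 of 233 members were called, where 0.104% of all 16300 genes tested were (0.0552% higher and 0.0491% lower). At an unadjusted p under 0.05, 12 members were higher and 13 lower, or 5.15% and 5.58% of them, against 6.76% and 6.36% of all genes. Both SETD2 siRNA libraries lay above both scramble libraries for 50 members and below them for 55, where 22.9% and 20.6% of all genes did so. The median log2 fold change was 0.02 for the members, 0.02 for other genes of similar TPM and 0.01 for all genes tested, and on this scale no member reached 1.5-fold in either direction (range -0.58 to 0.58). With 2 libraries against 2, an exact two-sided permutation test of a single gene cannot give a p below 0.333, so the test rests on the spread that limma shares across genes.

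The members with the smallest p were ZNF830, ZNF503 and ZNF286A. ZNF830, a nuclear protein of a complex that acts in pre-mRNA splicing and DNA repair, stood at 20.02 and 19.49 TPM in the scramble libraries and at 32.64 and 26.99 TPM with SETD2 siRNA. Its libraries did not overlap, and the log2 fold change was 0.58 (SE 0.12, limma adjusted p = 0.144). ZNF503, a developmental repressor also called NOLZ1, stood at 43.15 and 45.06 TPM in the scramble libraries and at 59.11 and 61.93 TPM with SETD2 siRNA (log2 fold change 0.45, SE 0.10, limma adjusted p = 0.168). ZNF286A stood at 31.63 and 27.42 TPM and then at 37.89 and 39.46 TPM (log2 fold change 0.39, SE 0.11, limma adjusted p = 0.230). At the other end, ZNF562 stood at 5.53 and 4.93 TPM in the scramble libraries and at 3.41 and 3.24 TPM with SETD2 siRNA (log2 fold change -0.58, SE 0.19, limma adjusted p = 0.264). None of these 4 passed the adjusted threshold.

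**Figure D1:**
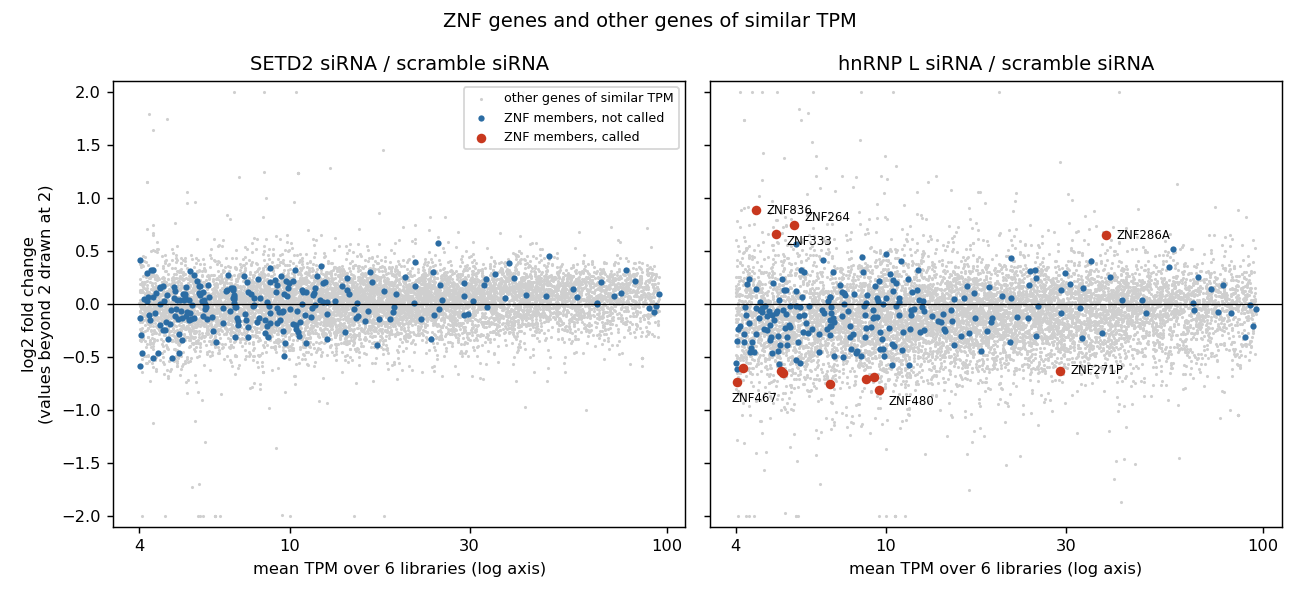
Log2 fold change against mean TPM over 6 libraries (log axis) for the 233 ZNF members and for other genes of similar TPM in grey, with SETD2 siRNA on the left and hnRNP L siRNA on the right. No member is called on the left, and on the right 13 called members are in red, 4 of them above 0, and 7 of them are named. Values beyond 2 in size are drawn at 2.

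Within the family, the KRAB members of chromosome 19 had the lowest of 4 class medians after SETD2 depletion. These 47 members had a median log2 fold change of -0.14, 35 of them were below 0, and both SETD2 siRNA libraries lay below both scramble libraries for 23 and above them for 6, where 20.6% and 22.9% of all genes did so. The median was below 0 in all 4 pairs of a SETD2 siRNA and a scramble library, from -0.21 to -0.06, and these pairs share libraries. The 22 members of chromosome 19 without KRAB letters had a median of 0.14, the 54 KRAB members elsewhere 0.01 and the 110 remaining members 0.05. This division was made after the values were seen, and the differences between the classes were not tested. The 521 other genes of similar TPM on chromosome 19 had a median of 0.12, from 0.03 to 0.20 over the pairs. A lean below 0 was also seen in the 190 ZNF genes of 0.5 to 4 TPM. Their median was -0.07, and 62.1% were below 0, where 47.4% of all genes were. Both SETD2 siRNA libraries lay below both scramble libraries for 47 of the 190 and above them for 23, beside the same shares of all genes.

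None of the 47 was called on its own, and at an unadjusted p under 0.05, 6 were lower and 0 higher, where 6.36% and 6.76% of all genes were. Base composition moved with these classes. The median GC content of the canonical transcript was 42.4% in the KRAB members of chromosome 19, 62.4% in the members there without KRAB letters and 61.5% in the other genes there. Among 3403 other protein-coding genes of similar TPM whose transcripts lay within the KRAB members' 10th to 90th percentile of GC (37.2% to 47.2%), the median log2 fold change was -0.01. The KRAB members elsewhere had a GC content of 43.3%. The summed level of all members with KRAB letters overlapped between the groups, at 802.6 and 839.1 TPM in the scramble libraries and 758.5 and 815.3 TPM with SETD2 siRNA.

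Level moved with the fold change as well. The 106 members of 4 to 8 TPM had a median of 0.00 after SETD2 depletion and the 23 members of at least 32 TPM a median of 0.10, and other genes gave -0.02 and 0.06 in the same ranges. The KRAB members of chromosome 19 had a median level of 5.41 TPM, and the 3403 other genes in their GC range one of 17.3 TPM, so that set is not matched in level. The part of level and of base composition in the medians of the classes was not tested.

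**Figure D2:**
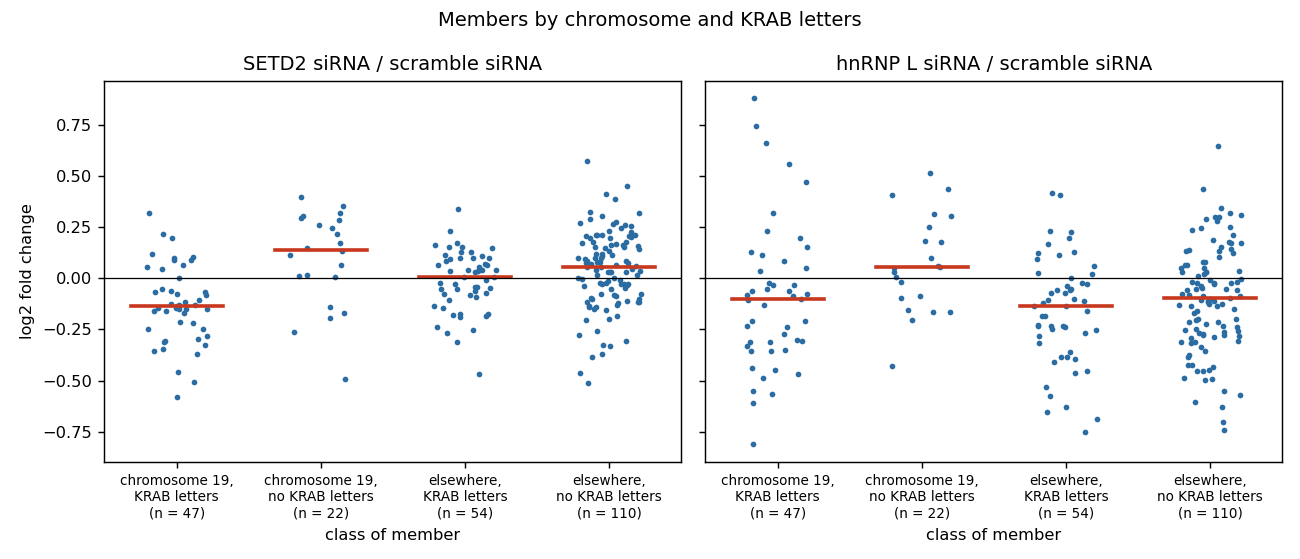
Log2 fold change of each member by chromosome and KRAB letters, with a red line at each class median. After SETD2 siRNA the medians run from -0.14 for the 47 KRAB members of chromosome 19 to 0.14 for the 22 members there without KRAB letters, and after hnRNP L siRNA from -0.13 to 0.06.

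Depletion of hnRNP L changed 13 members. By the same rule 4 of the 233 were higher and 9 were lower, or 1.72% and 3.86% of them, against 1.75% and 5.01% of all genes tested. In both directions this was 5.58% of the members, near the 6.76% of all genes and the 7.19% of other genes of similar TPM. The 4 higher members include ZNF836, which is a member only through hnRNP L siRNA, the group where it is high. The split moved with the scaling, to 6 higher and 5 lower after median-ratio scaling and to 6 higher and 3 lower after quantile normalization. The median log2 fold change was -0.10 for the members, -0.10 for other genes of similar TPM and -0.08 for all genes. At an unadjusted p under 0.05, 21 members were higher and 48 lower, where 8.12% and 20.3% of all genes were. Both hnRNP L siRNA libraries lay below both scramble libraries for 100 members and above them for 41, where 37.8% and 18.8% of all genes did so. Without either hnRNP L siRNA library limma called 0 members, in a fit where the lone library left is assumed to vary like the other groups, and the log2 fold changes of the 13 kept their sign. Without scramble library 1 it called 1 higher and 1 lower, without scramble library 2 it called 2 higher and 5 lower, and without either SETD2 siRNA library 4 higher and 5 lower. Both depletions were compared with the same scramble libraries, so their values are given side by side.

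ZNF480, a KRAB zinc finger gene at chr19:52297169-52325922, had the most negative log2 fold change of the members. ZNF33A and ZNF467 were close, at -0.75 and -0.74 (SE 0.15 each), so this order is not firm. ZNF480 stood at 10.39 and 12.62 TPM in the scramble libraries, at 10.84 and 11.05 TPM with SETD2 siRNA and at 6.23 and 6.39 TPM with hnRNP L siRNA. The hnRNP L siRNA mean was 54.9% of the scramble mean (log2 fold change -0.81, SE 0.13, limma adjusted p = 0.00900), and the SETD2 siRNA libraries lay within the scramble range. Over 17 other settings of the test its log2 fold change ranged from -0.946 to -0.677 and the call was kept under 14. The calls of ZNF248, ZNF836 and ZNF286A were kept under 13 of the 17, ZNF33A under 12, ZNF333 under 11, ZNF264 under 10, ZNF467 under 8, ZNF764 under 7, ZNF608 under 6, and ZNF783 and ZNF853 under 5, and that of ZNF271P under 10 of 16.

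ZNF836, a KRAB gene within 500 kb of ZNF480 and on the other strand (chr19:52153864-52171643), had the largest positive log2 fold change, but it passes the limit of 4 TPM only through hnRNP L siRNA, the group where it is high, so its rank among the members is no result. It stood at 3.02 and 3.85 TPM in the scramble libraries, at 3.70 and 3.16 TPM with SETD2 siRNA and at 6.83 and 6.58 TPM with hnRNP L siRNA. This was 195% of the scramble mean (log2 fold change 0.88, SE 0.16, limma adjusted p = 0.0128). Of its transcript, 12.04% of the 75-base stretches also lie in another gene. The neighbours ZNF649, ZNF577, ZNF766 and ZNF614 had log2 fold changes of -0.27, -0.57, -0.31 and -0.05, and none of these 4 was called.

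ZNF33A and ZNF248, KRAB genes of 1 cluster on chromosome 10, both fell. ZNF33A (chr10:38010650-38065088) stood at 9.19 and 7.17 TPM in the scramble libraries, at 8.51 and 8.41 TPM with SETD2 siRNA and at 4.42 and 4.83 TPM with hnRNP L siRNA (log2 fold change -0.75, SE 0.15, limma adjusted p = 0.0167). ZNF248 (chr10:37776526-37858106) stood at 11.07 and 11.36 TPM in the scramble libraries, 9.86 and 9.85 TPM with SETD2 siRNA, and 6.60 and 6.94 TPM with hnRNP L siRNA (log2 fold change -0.69, SE 0.11, limma adjusted p = 0.0101). In both, every hnRNP L siRNA library was below every other library. ZNF37A, the next member beyond ZNF33A at chr10:38094334-38150293, stood at 9.17 and 10.91 TPM in the scramble libraries and at 10.86 and 12.76 TPM with hnRNP L siRNA.

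ZNF33B, the related copy of ZNF33A whose promoter is shown above, stood at 10.73 and 10.58 TPM in the scramble libraries, 8.58 and 9.33 TPM with SETD2 siRNA and 11.26 and 12.07 TPM with hnRNP L siRNA. Its log2 fold change with hnRNP L siRNA was 0.12 (SE 0.12, limma adjusted p = 0.524). Only 2.23% of the 75-base stretches of ZNF33A also lie in ZNF33B, so few reads are common to both copies. The difference between the copies was not tested.

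ZNF467 and ZNF783 lie on 1 stretch of chromosome 7 and both fell. ZNF467 (chr7:149764182-149773588), which acts in the choice between fat and bone cell fates, stood at 4.08 and 4.18 TPM in the scramble libraries, at 5.61 and 5.70 TPM with SETD2 siRNA and at 2.56 and 2.01 TPM with hnRNP L siRNA (log2 fold change -0.74, SE 0.15, limma adjusted p = 0.0202). ZNF783 (chr7:149262171-149297302) stood at 5.73 and 5.94 TPM in the scramble libraries, 6.13 and 7.0 TPM with SETD2 siRNA and 3.07 and 4.05 TPM with hnRNP L siRNA (log2 fold change -0.65, SE 0.16, limma adjusted p = 0.0336). The libraries of ZNF467 fall in 3 separate ranges, with SETD2 siRNA highest and hnRNP L siRNA lowest, and its log2 fold change with SETD2 siRNA was 0.41 (SE 0.15, limma adjusted p = 0.311). Other members of the stretch, ZNF777, ZNF746 and ZNF767P, had log2 fold changes of -0.16, -0.10 and -0.31, and ZNF398, ZNF212 and ZNF786 had -0.13, -0.23 and -0.04. ZNF282 and ZNF862 had 0.25 and 0.13, and none of these 8 was called.

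On chromosome 16, ZNF764 (chr16:30553764-30558374) fell from 6.04 and 5.83 TPM in the scramble libraries to 3.49 and 3.83 TPM with hnRNP L siRNA, with 6.04 and 6.45 TPM after SETD2 siRNA (log2 fold change -0.63, SE 0.13, limma adjusted p = 0.0212). Its neighbours ZNF747 and ZNF629 had log2 fold changes of -0.53 and -0.49, with limma adjusted p = 0.0368 and 0.0305, and stayed below 1.5-fold. ZNF768, ZNF688, ZNF771 and ZNF48 of the same stretch had -0.05, 0.11, 0.28 and 0.00 and were not called. ZNF689 there had -0.38 (limma adjusted p = 0.0726).

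Across the family, 10 of the 13 called members had another member within 500 kb, and these neighbours numbered 33. The same share over all 233 members was not counted, so whether called members have neighbours more often is not known. Of the 33, 25 were below 0, where 66.5% of all members and 61.2% of all genes tested were. Their median log2 fold change was -0.13, beside -0.10 for all members. The count includes 6 neighbours that were called themselves, of which ZNF836 was higher and the others lower, so part of the count below 0 was fixed by the calls.

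The remaining members that fell were ZNF608, ZNF271P and ZNF853. ZNF608, the paralog of the transcription cofactor ZNF609, stood at 9.09 and 10.19 TPM in the scramble libraries, at 10.81 and 11.59 TPM with SETD2 siRNA and at 4.87 and 6.69 TPM with hnRNP L siRNA (log2 fold change -0.70, SE 0.16, limma adjusted p = 0.0269). The pseudogene ZNF271P was the most abundant member to fall, from 33.65 and 33.92 TPM to 20.55 and 22.87 TPM (log2 fold change -0.63, SE 0.11, limma adjusted p = 0.0111). Its SETD2 siRNA libraries stood between, at 29.83 and 32.83 TPM. ZNF853 fell from 4.70 and 4.79 TPM to 2.84 and 3.07 TPM, beside 4.76 and 4.94 TPM with SETD2 siRNA (log2 fold change -0.60, SE 0.14, limma adjusted p = 0.0274). In all 3 the hnRNP L siRNA libraries were below the other 4.

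The other members that rose were ZNF264, ZNF333 and ZNF286A. ZNF264, a KRAB gene at chr19:57191500-57222846, stood at 4.5 and 4.14 TPM in the scramble libraries, at 4.73 and 5.48 TPM with SETD2 siRNA and at 6.69 and 8.59 TPM with hnRNP L siRNA (log2 fold change 0.75, SE 0.16, limma adjusted p = 0.0219). ZNF333, a KRAB gene at chr19:14689801-14733746, stood at 4.35 and 4.51 TPM, then 3.13 and 4.04 TPM with SETD2 siRNA and 6.87 and 7.73 TPM with hnRNP L siRNA (log2 fold change 0.66, SE 0.15, limma adjusted p = 0.0308). In ZNF333 the SETD2 siRNA libraries lay below the scramble libraries and the hnRNP L siRNA libraries above them. The promoters of both held CCGGAAG on 1 strand, and those of ZNF836 and ZNF286A, which were also higher, did not hold it.

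ZNF286A (chr17:15699577-15720787) was the most abundant called member. It stood at 31.63 and 27.42 TPM in the scramble libraries, at 37.89 and 39.46 TPM with SETD2 siRNA and at 44.34 and 48.50 TPM with hnRNP L siRNA, and the last was 157% of the scramble mean (log2 fold change 0.65, SE 0.11, limma adjusted p = 0.0111). Of the 75-base stretches of its transcript, 65.1% also lie in another gene and 46.6% in a gene entry named ZNF286B. All such stretches of the pseudogene ZNF286B measured here (100%) also lie in other entries, among them 1 of the same name. The division of reads between the copies is therefore uncertain. ZNF286B stood at 7.46 and 8.68 TPM in the scramble libraries, 5.76 and 7.46 TPM with SETD2 siRNA and 9.49 and 12.93 TPM with hnRNP L siRNA (log2 fold change 0.44, SE 0.18, limma adjusted p = 0.153). A related pair at the lower limit was ZNF587, at 5.01 and 4.52 TPM in the scramble libraries and 3.02 and 2.88 TPM with hnRNP L siRNA, and ZNF587B, which is below the limit, at 2.72 and 2.08 TPM and at 3.48 and 3.57 TPM. Neither was called (limma adjusted p = 0.0573 and 0.109).

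**Figure D3:**
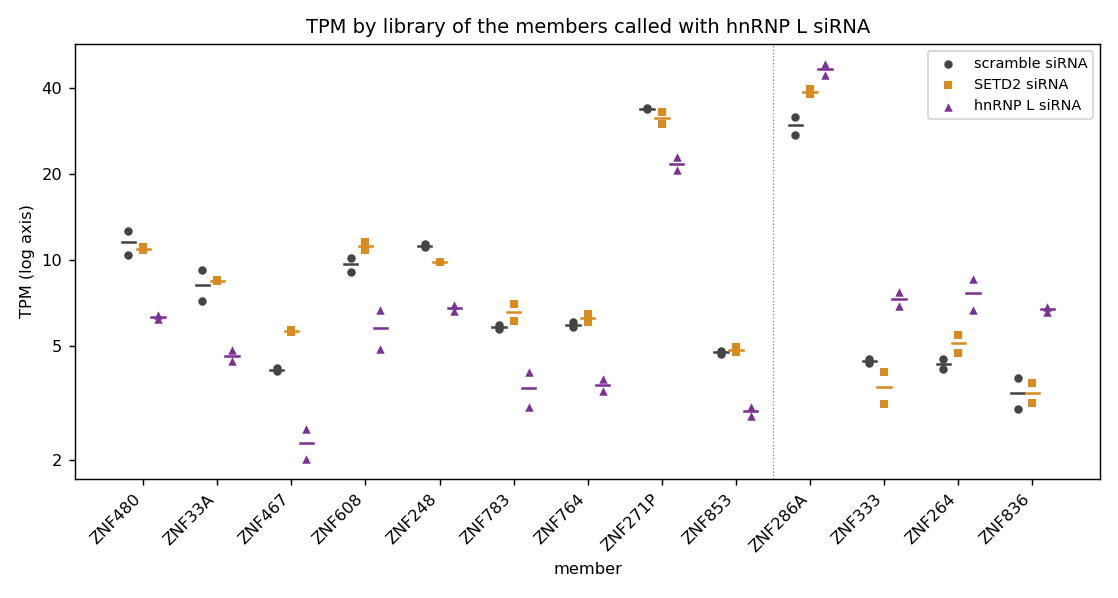
TPM (log axis) of the 13 members called with hnRNP L siRNA in each library, with a line at each group mean of 2 libraries. For the 9 members left of the dotted line both triangles of hnRNP L siRNA lie below the circles of scramble siRNA, and for the 4 on the right they lie above.

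hnRNP L binds CA repeats, and the letters CACACACA occurred in the canonical transcript of 48 members (20.6%), against 13.7% of other protein-coding genes of similar TPM. Of the 48, 4 fell and 1 rose, namely ZNF33A, ZNF248, ZNF467, ZNF608 and ZNF264, and of the 185 members without the letters 5 fell and 3 rose. In each of these sets the median log2 fold change was -0.10. Among other protein-coding genes of similar TPM, 7.36% of those with the letters and 6.78% of those without were called. A canonical transcript holds no introns, and the letters say nothing of binding.

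The calls after hnRNP L depletion fell on members with and without KRAB letters. Of the 101 members with KRAB letters 3 rose and 5 fell, and of the 132 others 1 rose and 4 fell, with median log2 fold changes of -0.12 and -0.08. By the same rule 1.75% of all genes tested were higher and 5.01% lower. By level, 8 of 106 members of 4 to 8 TPM were called, 3 of 77 of 8 to 16 TPM, 1 of 27 of 16 to 32 TPM and 1 of 23 above that, against 10.2%, 8.52%, 6.05% and 4.45% of other genes in these ranges. The 19 members with SCAN letters had a median of -0.02 and 0 of them was called by limma. At an unadjusted p under 0.05, 1 was higher and 5 were lower, where 8.12% and 20.3% of all genes were. The 190 ZNF genes of 0.5 to 4 TPM had 0 higher and 4 lower, beside the 1.75% and 5.01% of all genes. Among 46 genes of the ZBTB, ZSCAN, ZKSCAN and ZFP families, 0 were higher and 1 lower.

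Set directly against SETD2 siRNA, hnRNP L siRNA gave 3 higher and 11 lower members, where 2.15% and 4.69% of all genes were called in these directions and 6.84% in either. At an unadjusted p under 0.05, 19 members were higher and 52 lower, where 7.71% and 20.8% of all genes were. The median log2 fold change was -0.09 against -0.12 for other genes of similar TPM. The higher members were ZNF333 (log2 fold change 0.94, SE 0.15, limma adjusted p = 0.0101), ZNF836 and ZNF286B (0.88 and 0.71). ZNF836 is a member only through hnRNP L siRNA, the group where it is high, so its place among the 3 is no result. Since 100% of the 75-base stretches of ZNF286B also lie in other entries, its call cannot be assigned to that copy alone. The lower ones included ZNF467 (log2 fold change -1.15, SE 0.15, limma adjusted p = 0.00474), which is above the limit only with its SETD2 siRNA values, and ZNF608, ZNF33A, ZNF783 and ZNF480 at -0.91, -0.81, -0.81 and -0.75. Without either hnRNP L siRNA library 0 were higher and 1 or 2 lower, and without SETD2 siRNA library 2 or 3 the counts were 0 or 1 higher and 0 lower. ZNF467 was at 40.4% of its SETD2 siRNA mean, against 55.3% of its scramble mean. The other 6 were ZNF217, an oncogene product that works with the CtBP corepressor, and ZNF764, ZNF821, ZNF629, ZNF853 and ZNF747, all between -0.70 and -0.62 and named after their values were seen where they were not among the first 5. Of the 75-base stretches of ZNF747, 38.4% also lie in other genes.

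**Figure D4:**
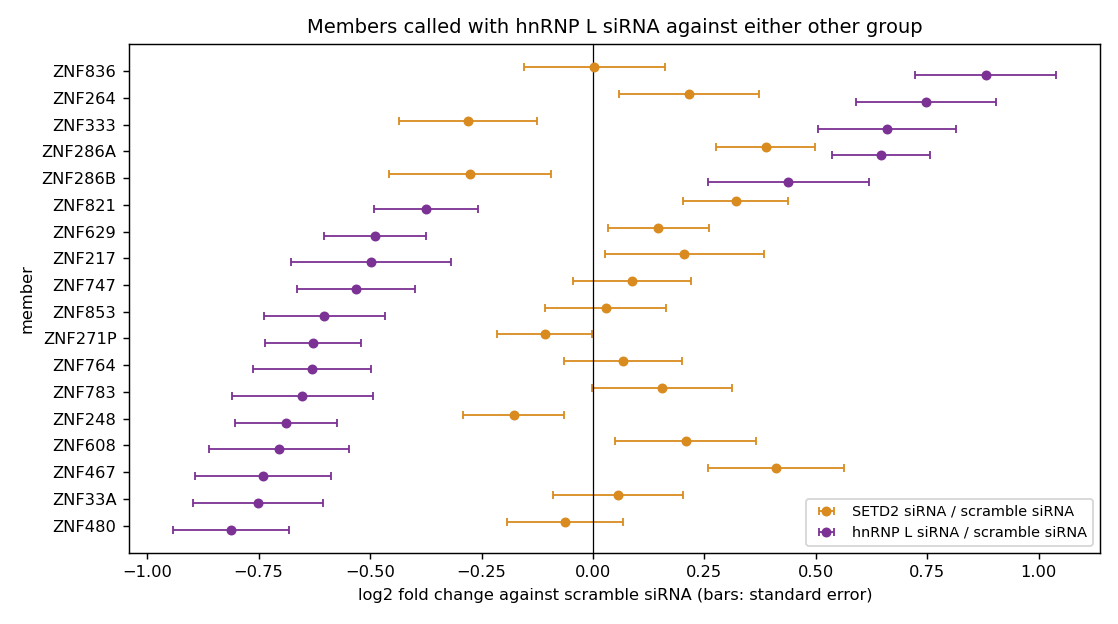
Log2 fold change against scramble siRNA, with SE bars, of the 18 members called with hnRNP L siRNA against scramble siRNA or against SETD2 siRNA. The SETD2 siRNA values lie between -0.28 and 0.41 and the hnRNP L siRNA values between -0.81 and 0.88, and both rest on the same 2 scramble libraries.

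A list of members with roles in RNA or ribosome biology held 10 genes, and limma called 0 of them with either siRNA. Of the 10, 1 was higher and 0 lower at an unadjusted p under 0.05 with SETD2 siRNA, and 3 were higher and 1 lower with hnRNP L siRNA. Of all genes, 6.76% were higher and 6.36% lower at that p with SETD2 siRNA, and 8.12% and 20.3% with hnRNP L siRNA. ZNF326, which links elongating RNA polymerase II to splicing in the DBIRD complex, stood at 33.62 and 33.20 TPM in the scramble libraries, 39.02 and 39.59 TPM with SETD2 siRNA and 24.47 and 29.11 TPM with hnRNP L siRNA. Its 3 groups did not overlap, but the log2 fold changes against scramble siRNA were 0.23 and -0.32 with limma adjusted p = 0.411 and 0.102. With hnRNP L siRNA against SETD2 siRNA it passed the adjusted p but not the fold limit (log2 fold change -0.55, limma adjusted p = 0.0185).

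ZNF598, the ubiquitin ligase of collided ribosomes, stood at 58.29 and 61.80 TPM in the scramble libraries, 69.86 and 69.13 TPM with SETD2 siRNA and 65.66 and 77.93 TPM with hnRNP L siRNA (log2 fold changes 0.21 and 0.25). ZNF593 and ZNF622, which act in maturation of the large ribosomal subunit, had log2 fold changes of 0.15 and -0.03 with SETD2 siRNA and 0.35 and -0.17 with hnRNP L siRNA. ZNF638, ZNF207, ZNF346, ZNF385A and ZNF106 had log2 fold changes from -0.08 to 0.25 with SETD2 siRNA and from -0.21 to 0.03 with hnRNP L siRNA.

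A list of transcription and chromatin cofactors held 22 genes, 18 of them members, and 1 was called with an siRNA against scramble, ZNF608 with hnRNP L siRNA. Of all genes, 0.104% were called with SETD2 siRNA and 6.76% with hnRNP L siRNA. ZNF143, which binds many promoters, stood at 28.86 and 27.51 TPM in the scramble libraries, 25.38 and 27.36 TPM with SETD2 siRNA and 31.92 and 37.52 TPM with hnRNP L siRNA (log2 fold change 0.29 with hnRNP L siRNA, SE 0.11, limma adjusted p = 0.134). Its paralog ZNF76 stood at 16.84 and 19.29 TPM, 12.49 and 15.03 TPM, and 19.24 and 19.57 TPM in the same order (log2 fold change -0.38 with SETD2 siRNA, SE 0.13, limma adjusted p = 0.269). Both were lowest in the SETD2 siRNA group, and neither was called. With hnRNP L siRNA against SETD2 siRNA, ZNF76 passed the adjusted p but not the fold limit (log2 fold change 0.49, limma adjusted p = 0.0452). For the 18 the median log2 fold change was 0.09 with SETD2 siRNA and 0.00 with hnRNP L siRNA.

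The partners that KRAB proteins work through were also measured. Of a list of 32 names for the TRIM28 corepressor and the heterochromatin of ZNF genes, 31 were tested and 0 were called by limma in any of the 3 comparisons. At an unadjusted p under 0.05, 3 were higher and 0 lower with SETD2 siRNA, and 0 were higher and 6 lower with hnRNP L siRNA, beside the same shares of all genes (6.76%, 6.36%, 8.12% and 20.3%). MTA2, of the NuRD complex, passed the adjusted p but not the fold limit with hnRNP L siRNA (log2 fold change -0.44, SE 0.10, limma adjusted p = 0.0256), as did KDM4A and MTA1 against SETD2 siRNA (-0.49 and -0.36, limma adjusted p = 0.0279 and 0.0381). TRIM28 itself stood at 533.4 and 689.2 TPM in the scramble libraries, 649.6 and 621.0 TPM with SETD2 siRNA and 707.2 and 669.5 TPM with hnRNP L siRNA. SETDB1, the H3K9 methyltransferase it recruits, stood at 39.89 and 44.01, 43.75 and 46.71, and 44.52 and 44.50 TPM in the same order.

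Transcripts beside members were also measured. Of 11 antisense, intronic or read-through rows that carry a member's name and reach 0.5 TPM, 0 were called with SETD2 siRNA and 3 with hnRNP L siRNA, where 0.104% and 6.76% of all genes were. ZNF687-AS1 fell from 4.24 and 4.17 TPM to 2.1 and 1.64 TPM (log2 fold change -0.996, SE 0.17, limma adjusted p = 0.0103), while its host ZNF687 stood at 11.45 and 10.92 TPM and at 11.09 and 10.48 TPM. ZNF503-AS2 fell from 9.63 and 12.35 TPM to 5.84 and 6.61 TPM (log2 fold change -0.77, SE 0.15, limma adjusted p = 0.0183), while ZNF503 stood at 43.15 and 45.06 TPM and at 40.11 and 43.25 TPM. ZNF32-AS2 rose from 0.26 and 0.28 TPM to 1.39 and 0.91 TPM (log2 fold change 1.08, SE 0.28, limma adjusted p = 0.0401). The counting is not stated to use strand, so reads of a gene and of its antisense partner cannot be told apart where the transcripts overlap.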

How the data were processed

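RNA-seq of 6 libraries was used, and ChIP-seq samples were not analysed here. Per the study's methods the authors aligned 75-base paired reads to hg38 with STAR 2.6.1c and Ensembl 96 and deposited TPM from RSEM 1.3.0. TPM keep no depth, so counting errors are unknown, and a count test could not be run. limma 3.58.1 in R 4.3.3 was fitted to log2(TPM + 0.5) of 16300 genes with a mean of at least 0.5 TPM, all 6 libraries together, with a variance trend and Benjamini-Hochberg adjustment over all genes tested. Calls needed an adjusted p below 0.05 together with over 1.5-fold change. The fit was tested on simulated data. Named members were the called ones whose libraries did not overlap (up to 10 per direction, or 5 against SETD2 siRNA), otherwise the 3 smallest p, the 5 highest, those at the limit and those on lists. Positions and canonical transcripts came from GENCODE, and domain letters from their translation. KRAB letters were searched with a pattern widened after seeing the data (88 members before, 101 after). The members and lists were chosen with earlier results of these data known. Alternatives changed the pseudocount, filter, biotypes, scaling, samples, trend, thresholds, replicate block and libraries. The crossed block, neighbours, shared stretches, means without a group and GC range were added after seeing the data.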

Additional observations from a re-analysis of the deposited data

How the results depend on the processing

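With SETD2 siRNA, 0 members were called under every alternative run, and the median lay between -0.040 and 0.062. With hnRNP L siRNA against scramble, the 4 higher and 9 lower members became 0 and 1 with no filter on low values, 8 and 15 with no fold threshold and 1 and 4 with a member limit of 8 TPM. Only the count of lower members moved by over 1.5 times with median-ratio scaling (5), quantile normalization (3) and a fit of the 2 groups alone (4), while 2 were higher without members that share stretches. Leaving out 1 library gave 0 to 4 higher and 0 to 5 lower. The median log2 fold change of ZNF members, hnRNP L siRNA against scramble siRNA, moved from -0.096 to -0.010 with median-ratio scaling and to 0.024 with quantile normalization.

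Against SETD2 siRNA, the 3 higher members became 6 with median-ratio scaling, 0 with no filter, 7 with quantile normalization, 6 with no fold threshold, 5 and 1 with limits of 2 and 8 TPM, and 1 without members that share stretches. The 11 lower became 0 with no filter, 6 with quantile normalization, 19 with no fold threshold and 4 with a limit of 8 TPM. Leaving out 1 library gave 0 to 2 higher and 0 to 10 lower. The median log2 fold change of ZNF members, hnRNP L siRNA against SETD2 siRNA, moved from -0.091 to 0.00943 with median-ratio scaling and to 0.0166 with quantile normalization. The causes were not tested.

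Same-numbered scramble and hnRNP L libraries deviated with a correlation of -0.126 over 16300 genes. With 2 libraries per group, this cannot show whether libraries of the same number were handled together. A replicate block gave 2 higher and 3 lower, and the crossed pairing, added after seeing the data, 4 higher and 10 lower. None of the 13 members called against scramble changed sign under the alternatives run for them.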
